A study of Mus musculus with 9 samples.

Results

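The secretory genes of the bronchiolar epithelium were followed in the lungs of mice with IL-33-driven airway inflammation, through 7 genes chosen by symbol from the 34638 genes of the table: Scgb1a1, Scgb3a2, Scgb3a1, Bpifa1, Bpifb1, Tppp3 and Aldoc. All 7 were found on a single row each and passed the filter on low values (mean FPKM of at least 0.5 over the 9 mice), so every gene was tested in every comparison. The names stand for different kinds of gene. Scgb1a1, Scgb3a2 and Scgb3a1 encode secretoglobins and Bpifa1 and Bpifb1 encode secreted BPI fold proteins, whereas Tppp3 encodes a tubulin-binding protein best known as a marker of ciliated cells and Aldoc encodes the glycolytic aldolase of brain. Tppp3 and Aldoc are therefore described apart from the 5 secreted proteins.

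Wild-type C57BL/6 mice were studied in 3 groups of 3. Control mice received PBS and IL-33 mice received 0.5 µg of recombinant mouse IL-33 into the trachea once a day from day 0 to day 3. In the third group, IL-33+LM8, the same IL-33 doses were preceded by an intraperitoneal injection of LM8, an inhibitor of the adaptor protein MyD88, at 10 mg/kg. The methods describe the control and IL-33 mice as females 6 to 8 weeks old, given 25 µL per instillation, with lungs taken on day 4; for the IL-33+LM8 mice they give neither age nor collection day, and no group received LM8 alone. RNA came from lung tissue without sorting, so fewer secretory cells and less RNA per cell cannot be told apart. FPKM, the number of reads divided by the length of the gene and the size of the library, was used for levels, and the read counts were used for tests. Counts totalled 61767006 to 73869252 per control mouse, 53877663 to 66029783 per IL-33 mouse and 59753648 to 90607218 per IL-33+LM8 mouse.

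Club cells are the dome-shaped secretory cells of the mouse bronchiole. They release Scgb1a1 (CC10), the main protein of the airway lining fluid, metabolise inhaled chemicals through cytochrome P450 enzymes such as Cyp2f2, and act as progenitors that can give rise to ciliated and to mucus-producing goblet cells. Scgb3a2 is made by distal airway secretory cells and is known as a target of the lung transcription factor NKX2-1. Bpifa1 (SPLUNC1) and Bpifb1 (LPLUNC1) are lipid-binding proteins of the upper and conducting airways, the second of them known from mucus-producing cells, and Scgb3a1 is likewise most abundant in the larger airways.

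In IL-33 mice the group split. Scgb1a1 and Scgb3a2 fell, to 41.0% and 8.69% of their control mean FPKM, and Tppp3 fell to 35.0%, while Bpifb1 rose to 464%. With LM8 given before IL-33, Scgb1a1, Scgb3a2 and Tppp3 were higher than with IL-33 alone, and Bpifb1 stayed above control. Scgb3a1, Bpifa1 and Aldoc did not pass the test in any of the 3 comparisons, although Scgb3a1 and Bpifa1 passed in IL-33+LM8 against control with the replicate number as a block.

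Of the 7 genes, 4 passed the test (edgeR's quasi-likelihood test, Benjamini-Hochberg adjusted p under 0.05) when IL-33 mice were compared with control mice, 1 higher and 3 lower. All 4 also differed at least 2-fold. The background was high in this comparison, since 54.6% of the 16831 genes tested passed, 27.4% higher and 27.2% lower, and 17% passed with a fold change of at least 2. When IL-33+LM8 mice were compared with IL-33 mice, 3 of the 7 were higher and 0 lower, and 1 of them, Scgb3a2, differed at least 2-fold. There 26.5% of all genes passed, 12.6% higher and 13.9% lower, and 5.39% with the minimum fold. Against control mice, 1 was higher and 2 lower in IL-33+LM8 mice, with 2 of the 3 at least 2-fold apart, where 29.7% of 16829 genes passed, 16.3% higher and 13.4% lower, and 7.33% with the minimum fold. With the replicate number as a block, 6 of the 7 passed instead of 3, but no label gives such a pairing and the deviations of the mice could not show it. The comparisons share mice, so they are not independent of each other. For a single gene, the exact two-sided permutation test of 3 mice against 3 has 0.1 as its smallest p.

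**Figure D1:**
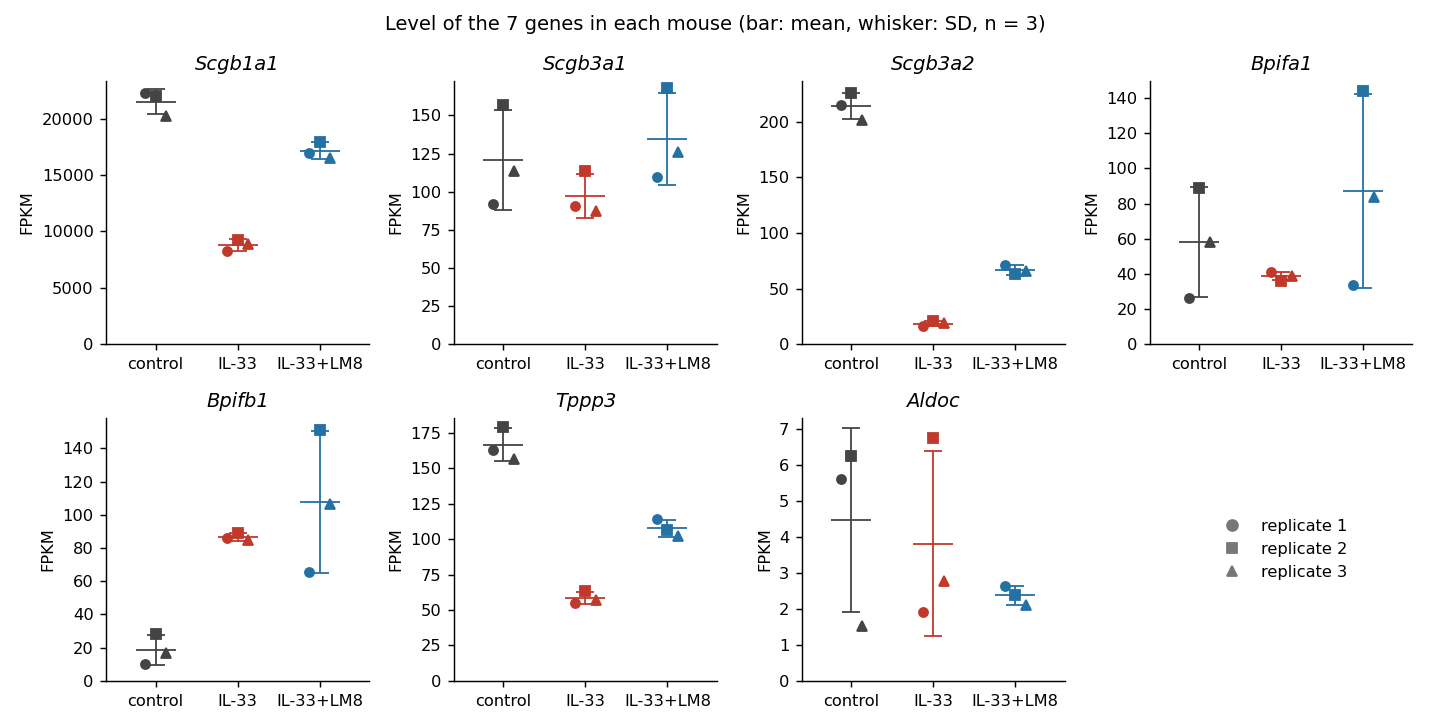
FPKM of each gene (linear axis from 0) in the 3 mice of each group, with a marker shape per replicate number, a horizontal bar at the mean and whiskers of 1 SD. Scgb1a1, Scgb3a2 and Tppp3 form separate tiers in which IL-33 mice are lowest, Bpifb1 is lowest in control mice, and Scgb3a1, Bpifa1 and Aldoc overlap between groups.

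**Figure D2:**
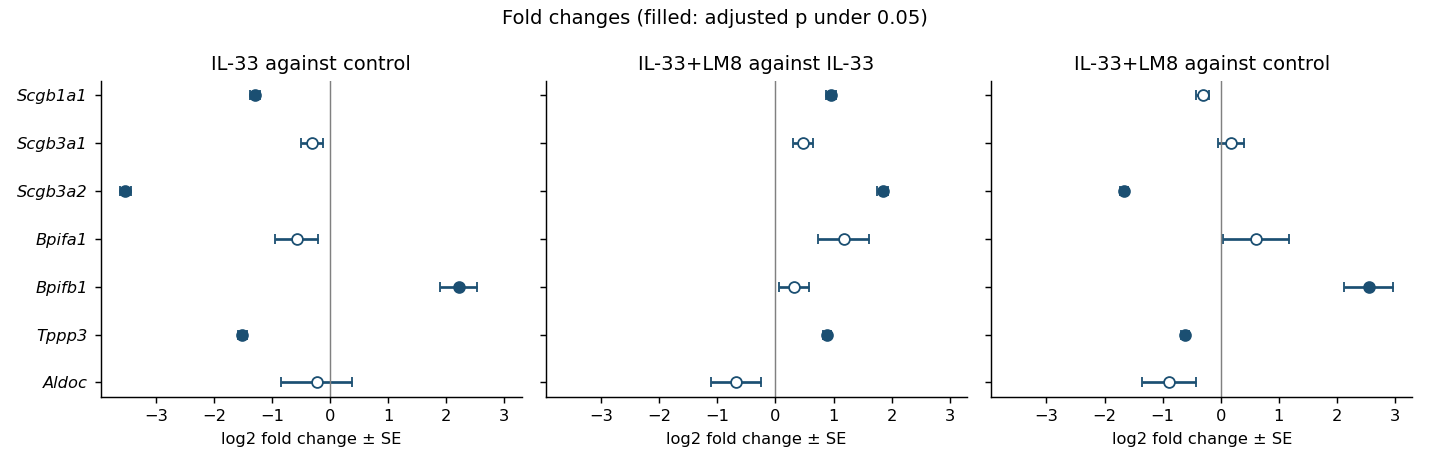
Log2 fold change of each gene in the 3 comparisons with its standard error (first-named group over the second), filled where the adjusted p was under 0.05. The decreases of Scgb1a1, Scgb3a2 and Tppp3 with IL-33 and the increase of Bpifb1 stand away from 0, and the errors of Bpifa1 and Aldoc are wide.

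Some libraries stood apart in ways the groups do not give. Control replicate 3, IL-33 replicate 1 and IL-33+LM8 replicate 3 deviated together from their group means (Pearson r of at least 0.647 across genes) and had the highest total count of their groups. Control replicates 1 and 2 and IL-33 replicate 2 carried more RNA of nervous-system genes than the other 6 libraries, as described with Aldoc. The libraries that deviated together had the lowest summed level of these genes. Every call made on the 7 genes was also made without the first 3 libraries and without the second 3, which leaves a single control mouse that is assumed to vary like the others.

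Scgb1a1 (ENSMUSG00000024653, chromosome 19, minus strand, from 9061000 to 9065322) was by far the most abundant of the genes; positions of genes are those of the deposited table, which names no build and does not match GRCm38. It measured 22247, 22044 and 20208 FPKM in control mice, 8229, 9257 and 8932 FPKM in IL-33 mice, and 17000, 17960 and 16483 FPKM in IL-33+LM8 mice. No 2 groups overlapped, and IL-33+LM8 mice lay between the other groups. It was the gene with the highest FPKM of the whole table in every control and IL-33+LM8 mouse, and the gene with the second highest in every IL-33 mouse. It made up 6.49% to 7.25% of the summed FPKM of control mice, 2.56% to 2.86% of that of IL-33 mice and 5.04% to 5.36% of that of IL-33+LM8 mice. The log2 fold change with IL-33 was -1.29 (SE 0.09, adjusted p = 2.14e-05), and from IL-33 to IL-33+LM8 it was 0.96 (SE 0.09, adjusted p = 0.000369). The mean of IL-33+LM8 mice was 79.8% of the control mean, so that 65.7% of the difference between control and IL-33 means was absent with LM8. The remaining difference from control, -0.31 (SE 0.11), did not pass (adjusted p = 0.0674). With the replicate number as a block it did (-0.31, adjusted p = 0.023). It also passed with all 9 mice in 1 fit (-0.314, adjusted p = 0.023) and at a minimum mean FPKM of 5 (-0.341, adjusted p = 0.0076). DESeq2 passed it too (-0.317, adjusted p = 0.00023), and the other alternatives did not.

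Scgb3a2 (ENSMUSG00000038791) had the largest fold change of the 7 with IL-33 and the largest between IL-33+LM8 and IL-33. Control mice had 215, 226 and 202 FPKM, IL-33 mice 16.5, 20.8 and 18.6 FPKM, and IL-33+LM8 mice 71.6, 63.3 and 65.8 FPKM. The groups did not overlap, and the highest IL-33 mouse was below the lowest IL-33+LM8 mouse. Its log2 fold change was -3.52 with IL-33 (SE 0.10, adjusted p = 1e-06), 1.84 from IL-33 to IL-33+LM8 (SE 0.10, adjusted p = 6.48e-05) and -1.66 from control to IL-33+LM8 (SE 0.07, adjusted p = 2.4e-05). Of the difference between control and IL-33 mean FPKM, 24.7% was absent with LM8, against 65.7% for Scgb1a1. This share depends on the scale: of the difference between log2 means, 52.4% was absent for Scgb3a2 and 74.7% for Scgb1a1.

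The 2 secretoglobins therefore changed by unequal amounts within the same mouse. Scgb3a2 amounted to 0.997% ± 0.030 (SD, n = 3) of Scgb1a1 FPKM in control mice, 0.211% ± 0.012 in IL-33 mice and, with LM8 added, 0.391% ± 0.035. The 3 groups of ratios did not overlap (exact permutation p = 0.1 for each pair of groups, the smallest possible). Tppp3 stayed closer to Scgb1a1, at 0.774% ± 0.040, 0.662% ± 0.023 and 0.628% ± 0.041 of it. Its control ratios lay above those of both other groups without overlap (exact permutation p = 0.1 for each, the smallest possible).

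**Figure D3:**
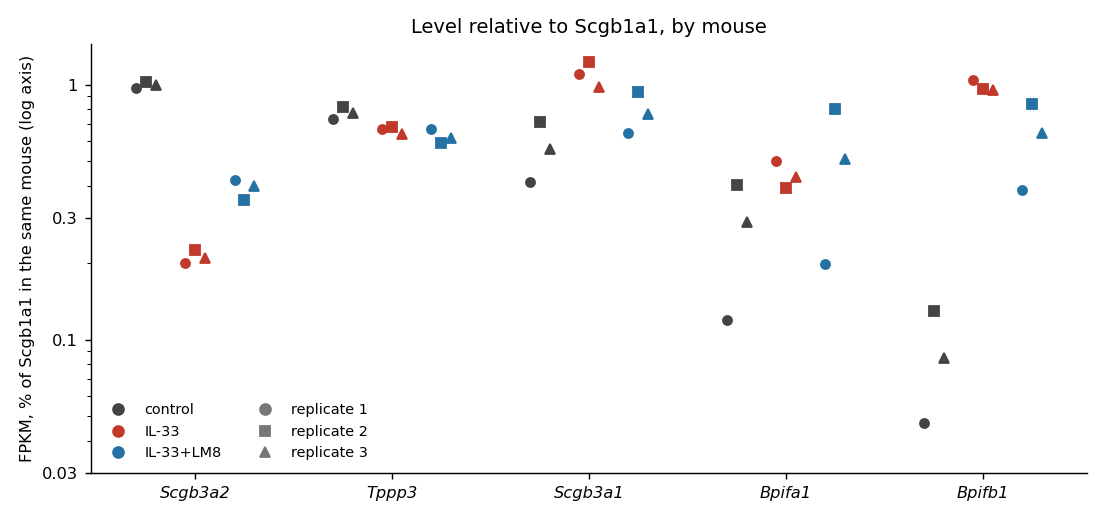
FPKM of 5 of the genes as a percentage of Scgb1a1 FPKM in the same mouse, on a log axis, with colours for groups and shapes for replicate numbers. Scgb3a2 falls from about 0.997% to 0.211% with IL-33 while Bpifb1 goes from 0.0869% to 0.985%, and Tppp3 moves less, from 0.774% to 0.662%.

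Scgb3a1 (ENSMUSG00000064057, chromosome 11, plus strand, from 49554437 to 49555945) did not pass in any comparison. Its changes with IL-33 and from IL-33 to IL-33+LM8 had the same signs as those of Scgb1a1 and Scgb3a2 but were smaller. It measured 92.1, 157 and 113 FPKM in control mice, 90.6, 113 and 87.2 FPKM in IL-33 mice, and 110, 168 and 126 FPKM in IL-33+LM8 mice. All 3 groups overlapped, with replicate 2 the highest of each. The log2 fold changes were -0.31 with IL-33 (SE 0.19, adjusted p = 0.208), 0.47 from IL-33 to IL-33+LM8 (SE 0.17, adjusted p = 0.0863) and 0.17 from control to IL-33+LM8 (SE 0.22, adjusted p = 0.589). The ratio of Scgb3a2 to Scgb3a1 was 1.44 to 2.33 in control mice, 0.182 to 0.214 in IL-33 mice and 0.376 to 0.654 in IL-33+LM8 mice, with no overlap. With the replicate number as a block, Scgb3a1 passed in IL-33+LM8 against control (log2 fold change 0.18, adjusted p = 0.028). Its rise over IL-33 passed with that block (0.458, adjusted p = 0.018), with DESeq2 (0.477, adjusted p = 0.012) and without IL-33+LM8 replicate 1 (0.605, adjusted p = 0.038).

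The secretoglobin family was listed with 18 symbols, of which 6 were in the table and 4 passed the filter. Beside the 3 described, the fourth was Scgb1c1, a secretoglobin known from the nasal mucosa, at 8.61 ± 2.57 FPKM in control, 2.42 ± 1.2 in IL-33 and 4.62 ± 1.10 in IL-33+LM8 mice. It fell with IL-33 (log2 fold change -1.83, SE 0.40, adjusted p = 0.00657). The fall did not pass without control replicates 1 and 2 and IL-33 replicate 2 (log2 fold change -1.10, adjusted p = 0.17). Of the 4 secretoglobins tested, 3 were lower and 0 higher in IL-33 against control, 2 were higher and 0 lower in IL-33+LM8 against IL-33, and 1 was lower and 0 higher in IL-33+LM8 against control, where 2 passed without control replicate 3. The list medians were -1.56, 0.94 and -0.60 on the log2 scale, where the medians of all genes tested were -0.01, -0.01 and 0.00.

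Bpifa1 and Bpifb1 lie in the same gene cluster of chromosome 2 and on the same strand, 41598 bases apart in the deposited coordinates (Bpifa1, ENSMUSG00000027483, from 153984800 to 153991139; Bpifb1, ENSMUSG00000027485, from 154032738 to 154062289). Promoter sequence was at hand for Bpifa1, Bpifb1, Scgb3a1 and Aldoc. The 250 bases before each annotated start of the neighbours Bpifa1 and Bpifb1, and those of Scgb3a1, are shown because these airway genes differed in their response to IL-33. They are RefSeq sequences of GRCm38.p6, all on the plus strand and written 5′ to 3′, and the capitals mark the matches described after them. Bpifb1 has 2 annotated starts, 9562 bases apart.
Bpifa1, chr2:154142630-154142879: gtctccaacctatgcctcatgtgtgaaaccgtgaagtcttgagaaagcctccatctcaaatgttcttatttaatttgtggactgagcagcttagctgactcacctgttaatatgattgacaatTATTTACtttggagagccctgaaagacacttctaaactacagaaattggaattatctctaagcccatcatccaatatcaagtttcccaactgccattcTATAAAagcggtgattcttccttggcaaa
Bpifb1 first start, chr2:154190568-154190817: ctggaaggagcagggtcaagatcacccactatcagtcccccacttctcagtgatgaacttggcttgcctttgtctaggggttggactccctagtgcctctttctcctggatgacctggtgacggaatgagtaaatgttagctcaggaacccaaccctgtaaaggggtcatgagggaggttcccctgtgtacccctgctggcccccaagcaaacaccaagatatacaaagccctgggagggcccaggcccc
Bpifb1 second start, chr2:154200130-154200379: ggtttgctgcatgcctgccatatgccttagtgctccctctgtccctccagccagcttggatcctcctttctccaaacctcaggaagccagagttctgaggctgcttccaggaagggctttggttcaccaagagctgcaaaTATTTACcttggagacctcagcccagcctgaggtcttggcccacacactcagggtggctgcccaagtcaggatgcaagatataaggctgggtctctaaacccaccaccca
Scgb3a1, chr11:49663345-49663594: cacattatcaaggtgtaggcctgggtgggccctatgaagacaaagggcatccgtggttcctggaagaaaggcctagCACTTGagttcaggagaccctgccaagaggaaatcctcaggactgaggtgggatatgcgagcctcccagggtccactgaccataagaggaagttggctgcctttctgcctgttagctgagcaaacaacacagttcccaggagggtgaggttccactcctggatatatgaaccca

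Letters of 5 motifs were searched on both strands of these windows, after the expression values were known: TNTTTAC for forkhead factors such as FOXA, CACTTG for NKX2-1, the letters TTC and GAA with 4 bases between them for STAT6, TTGCNNAA for C/EBP and TATAAA for the TATA box. In windows of the same length before 32851 annotated starts, 10.9%, 11.6%, 5.85%, 9.56% and 12.4% held them. Bpifa1 held the forkhead letters at 127 to 121 bases before the start and the TATA letters at 29 to 24 bases. The second start of Bpifb1 held the same forkhead letters, TATTTAC, at 110 to 104 bases, and its first start held none of the 5 motifs. Aldoc, whose windows are not printed, also held forkhead letters, TGTTTAC, at 148 to 142 bases before its second start. Scgb3a1 held the NKX2-1 letters at 174 to 169 bases. None of the printed windows held the STAT6 or C/EBP letters. Matches of this length are descriptions of the sequence and no evidence of binding.

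Bpifb1 was the only one of the 7 genes that rose with IL-33. It measured 10.5, 28.5 and 17.0 FPKM in control mice, 85.7, 89.3 and 84.8 FPKM in IL-33 mice, and 65.4, 151 and 106 FPKM in IL-33+LM8 mice. Every control mouse was below every mouse of the other groups, and IL-33+LM8 mice spread to both sides of IL-33 mice. The log2 fold change was 2.21 with IL-33 (SE 0.32, adjusted p = 0.000909) and 2.55 from control to IL-33+LM8 (SE 0.42, adjusted p = 0.00465). Between IL-33+LM8 and IL-33 it was 0.32 (SE 0.26, adjusted p = 0.43). That value rested on single mice, at 0.58 without IL-33+LM8 replicate 1 (adjusted p = 0.029) and -0.02 without IL-33+LM8 replicate 2.

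Bpifa1, its neighbour, was spread widely in 2 groups. Control mice had 26.5, 89.1 and 58.4 FPKM, IL-33 mice 41.3, 36.2 and 38.8 FPKM, and IL-33+LM8 mice 33.5, 144 and 83.8 FPKM. The IL-33 mice lay within the range of the control mice and of the IL-33+LM8 mice, and the coefficient of variation was 54%, 6.52% and 63.5% in the 3 groups. The log2 fold changes, -0.58 (SE 0.37), 1.17 (SE 0.44) and 0.61 (SE 0.57), did not pass (adjusted p = 0.225, 0.095 and 0.456). With the replicate number as a block, Bpifa1 passed in IL-33+LM8 against control (log2 fold change 0.54, adjusted p = 0.0041). Without control replicate 1 the fall with IL-33 passed (log2 fold change -0.92, adjusted p = 0.0054), and without IL-33+LM8 replicate 1 the increase over IL-33 did (1.56, adjusted p = 0.0033).

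The ratio of the neighbours separated the groups more clearly than Bpifa1 did. Bpifb1 stood at 0.292 to 0.395 of Bpifa1 FPKM in control mice, at 2.08 to 2.46 in IL-33 mice and at 1.05 to 1.95 in IL-33+LM8 mice, so the 3 ranges did not overlap. In replicate 2 of control and of IL-33+LM8 mice, Bpifa1, Bpifb1 and Scgb3a1 were all at the highest level of their group. Across the 9 mice, Scgb3a1 and Bpifa1 had a Pearson r of 0.876 on log2(FPKM + 1), whereas Scgb1a1 and Scgb3a1 had 0.518.

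The BPI fold family was listed with 18 symbols, 9 of them in the table and 5 tested. In IL-33 against control, 1 was higher (Bpifb1) and 1 lower; the lower was Pltp, the phospholipid transfer protein of plasma, at 148 ± 10.2 FPKM in control and 106 ± 7.95 in IL-33 mice (log2 fold change -0.48, SE 0.08, adjusted p = 0.00202), a call lost without the libraries high in nervous-system genes (-0.39, adjusted p = 0.061). Between IL-33+LM8 and IL-33 mice 1 was higher and 0 lower, and 3 passed without IL-33+LM8 replicate 1. The gene was Bpifb5, at 3.72 ± 0.24, 4.08 ± 0.24 and 7.66 ± 1.74 FPKM in control, IL-33 and IL-33+LM8 mice, with a log2 fold change of 0.91 over IL-33 (SE 0.18, adjusted p = 0.00877) and of 1.06 over control (SE 0.18, adjusted p = 0.00557). Bpifb5 did not pass over IL-33 with 2 mice a group, the libraries that deviate together left out (0.92, adjusted p = 0.061), nor over control without the libraries high in nervous-system genes (1.16, adjusted p = 0.08). Bpifb1 and Bpifb5 were the 2 higher in IL-33+LM8 against control, with 0 lower. The list medians were -0.13, 0.32 and 0.61 in the 3 comparisons. Lbp, the LPS-binding protein, was measured at 11, 10.1 and 9.38 FPKM and did not pass.

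Tppp3 (ENSMUSG00000014846, chromosome 8, minus strand, from 106194125 to 106198158) measured 163, 179 and 157 FPKM in control mice, 54.9, 63.2 and 56.9 FPKM in IL-33 mice, and 114, 106 and 102 FPKM in IL-33+LM8 mice. The groups did not overlap. The log2 fold change was -1.51 with IL-33 (SE 0.08, adjusted p = 6.66e-06), 0.88 from IL-33 to IL-33+LM8 (SE 0.07, adjusted p = 0.000238) and -0.62 from control to IL-33+LM8 (SE 0.08, adjusted p = 0.00127). With LM8, 45.5% of the difference between control and IL-33 mean FPKM was absent, or 58.3% on the log2 scale. Of 1814 stretches of 31 bases in its GENCODE transcripts, 85 also occur in transcripts of other genes, so a small part of its reads could have been counted elsewhere. For Bpifb1 it was 10 of 3612 stretches, and for the 3 secretoglobins, Bpifa1 and Aldoc the number was 0.

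Tppp3 was read beside 20 ciliated cell genes. In IL-33 against control 15 of them fell and 2 rose, with a median log2 fold change of -0.55, and between IL-33+LM8 and IL-33 mice 13 rose and 2 fell, with a median of 0.47. Sec14l3, the most abundant of the list, went from 596 ± 23.4 to 272 ± 5.74 FPKM with IL-33 (log2 fold change -1.13, SE 0.05, adjusted p = 5.29e-06) and to 407 ± 28.9 FPKM with LM8 (0.58 over IL-33, SE 0.07, adjusted p = 0.000854). The 2 genes that moved the other way were Mcidas and Ccno, the coregulator and the cyclin-like protein that start the making of multiple cilia. Mcidas rose from 0.281 ± 0.111 to 1.68 ± 0.03 FPKM with IL-33 (log2 fold change 2.55, SE 0.32, adjusted p = 0.000409) and was 0.380 ± 0.083 FPKM with LM8 (-2.14 against IL-33, SE 0.23, adjusted p = 0.000638). Ccno rose from 1.28 ± 0.10 to 2.99 ± 0.18 FPKM (1.22, SE 0.14, adjusted p = 0.000288) and was 0.956 ± 0.371 FPKM with LM8 (-1.64 against IL-33, SE 0.27, adjusted p = 0.00435), a call lost with 2 mice a group, the libraries that deviate together left out (adjusted p = 0.051). Foxj1, the transcription factor of ciliated cells, measured 37.5, 36.7 and 36.4 FPKM and did not pass; it is named after its values were seen. Against control, 1 ciliated gene was higher and 3 were lower in IL-33+LM8 mice, with a median of -0.07.

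Tppp, the brain-type relative of Tppp3, changed in the same direction, at 10.6 ± 0.97, 4.2 ± 1.05 and 6.50 ± 0.40 FPKM. It fell with IL-33 (log2 fold change -1.33, SE 0.17, adjusted p = 0.000541) and was higher with LM8 than without (0.63, SE 0.17, adjusted p = 0.0282), though that call was lost in 6 alternatives, 5 of them the removal of a single mouse, which was any of the 6 except IL-33 replicate 2 (adjusted p of 0.052 to 0.097). Of the 5 tested genes of the TPPP and aldolase families, 1 rose and 2 fell with IL-33 (list median -0.23), 2 were higher and 0 lower in IL-33+LM8 against IL-33 (0.50; 1 passed wherever Tppp did not), and 0 were higher and 2 lower in IL-33+LM8 against control (-0.62). The gene that rose with IL-33 was Aldoa, the aldolase of muscle and most other tissues, from 135 ± 11.4 to 170 ± 9.77 FPKM (log2 fold change 0.33, SE 0.08, adjusted p = 0.0114).

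Aldoc (ENSMUSG00000017390, chromosome 11, plus strand, from 78213794 to 78218607) was the least abundant of the 7. It measured 5.61, 6.24 and 1.53 FPKM in control mice, 1.92, 6.73 and 2.76 FPKM in IL-33 mice, and 2.65, 2.38 and 2.12 FPKM in IL-33+LM8 mice. Control replicates 1 and 2 and IL-33 replicate 2 were high and the other 6 mice low, so the split did not follow the groups. The log2 fold changes of -0.23 (SE 0.61), -0.68 (SE 0.42) and -0.89 (SE 0.46) did not pass (adjusted p = 0.776, 0.289 and 0.186).

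The 5 genes with a pattern over the 9 mice most like that of Aldoc (Pearson r on log2(FPKM + 1) among 14674 genes, 0.988 to 0.991) were Kif5a, Mbp, Sult4a1, Sst and Cend1, which are known as genes of nerve cells or, for Mbp, of myelin. These coefficients rest mostly on 3 high libraries against the other 6, which were not alike. A list of 12 nervous-system genes, drawn up after this was seen, had a summed level of 53.6, 55.3 and 17.1 FPKM in control replicates 1, 2 and 3, of 13.6, 54.1 and 18.1 FPKM in IL-33 replicates 1, 2 and 3, and of 19.8, 17.2 and 14.3 FPKM in the IL-33+LM8 mice. The same 3 libraries were high in both measures. Snap25, a synaptic protein of neurons, measured 4.44, 4.92 and 5.39 FPKM in those 3 libraries and 0.00856 to 0.802 FPKM in the other 6. Of the 12 genes, 11 were higher in each of the 3 libraries than in any of the other 6, the exception being Stmn2. Among the other 6, Snap25 was at most 0.0377 FPKM in the libraries that deviated together (control replicate 3, IL-33 replicate 1 and IL-33+LM8 replicate 3). It was at least 0.542 FPKM in IL-33 replicate 3 and IL-33+LM8 replicates 1 and 2. Aldoc and the summed level were also lowest in the libraries that deviated together, by small margins, but not every one of the 12 genes followed this order.

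Without those 3 libraries, which leaves 1 control and 2 IL-33 mice, the Aldoc log2 fold changes were 0.63 (adjusted p = 0.17), 0.02 (adjusted p = 0.96) and 0.66 (adjusted p = 0.13), opposite in sign to those with all mice. Without control replicate 3 alone, Aldoc passed in IL-33+LM8 against control (log2 fold change -1.31, adjusted p = 0.0015). The part of the nervous-system RNA in the Aldoc values was not tested. The calls on Scgb1a1, Scgb3a2, Tppp3 and Bpifb1 were made with and without the libraries high in nervous-system genes.

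**Figure D4:**
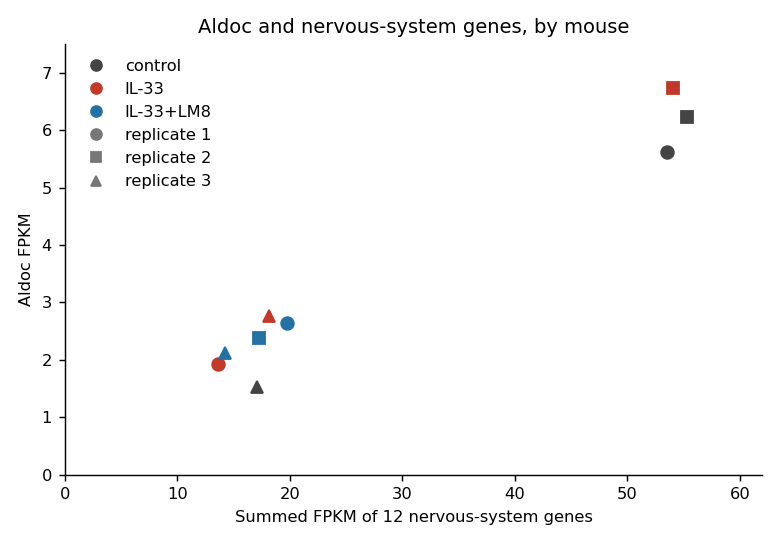
Aldoc FPKM against the summed FPKM of 12 nervous-system genes, both on linear axes, with 1 point per mouse, colours for groups and shapes for replicate numbers. Control replicates 1 and 2 and IL-33 replicate 2 lie at 53.6 to 55.3 summed FPKM and 5.61 to 6.73 FPKM of Aldoc, apart from the other 6 mice.

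The order of the 7 levels was not the same in the 3 groups. In control mice it ran from Scgb1a1 (21500 ± 1123 FPKM, SD, n = 3) through Scgb3a2 (214 ± 12), Tppp3 (166 ± 11.6), Scgb3a1 (121 ± 32.8), Bpifa1 (58.0 ± 31.3) and Bpifb1 (18.7 ± 9.13) to Aldoc (4.46 ± 2.56), and only Bpifa1 and Bpifb1 overlapped as neighbours. In IL-33 mice Scgb3a1 (97.1 ± 14.3 FPKM) and Bpifb1 (86.6 ± 2.35) came next after Scgb1a1 (8806 ± 525) and overlapped, followed by Tppp3 (58.3 ± 4.34), Bpifa1 (38.8 ± 2.53), Scgb3a2 (18.6 ± 2.15) and Aldoc (3.81 ± 2.57), with no further overlap of neighbours. In IL-33+LM8 mice Scgb1a1 (17148 ± 750 FPKM) was followed by Scgb3a1 (135 ± 30.4), Bpifb1 (108 ± 43.0), Tppp3 (108 ± 6.17), Bpifa1 (87.1 ± 55.2) and Scgb3a2 (66.9 ± 4.22), each overlapping with the next, and by Aldoc (2.38 ± 0.27). Scgb3a2 thus went from the second place in control mice to the sixth in both other groups.

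The other genes of club and secretory cells were read as a list of 18, all tested. In IL-33 against control 13 of them fell, 1 rose and 4 did not pass, with a median log2 fold change of -0.78. Cyp2f2, the P450 enzyme that marks mature club cells, fell from 1267 ± 54.5 to 213 ± 4.62 FPKM (log2 fold change -2.57, SE 0.06, adjusted p = 6.83e-07). Pon1, the paraoxonase, fell from 21 ± 1.71 to 1.56 ± 0.34 FPKM (-3.75, SE 0.17, adjusted p = 4.26e-06), and Gsta3, a glutathione transferase, from 54.2 ± 11.1 to 11.3 ± 1.06 FPKM (-2.26, SE 0.15, adjusted p = 2.2e-05). Smaller falls were measured for Cyp2b10 (-1.23, SE 0.07, adjusted p = 8.99e-06) and for haptoglobin, Hp (-0.93, SE 0.08, adjusted p = 5.81e-05). The gene that rose was Krt15, a keratin also known from basal cells, from 0.382 to 1.11 FPKM (1.54, SE 0.55, adjusted p = 0.048); it is named after its values were seen, and the call was lost in 9 alternatives, 5 of them the removal of a single mouse, which was any of the 6 except control replicate 2 (adjusted p of 0.074 to 0.12).

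Compared with IL-33 mice, IL-33+LM8 mice had 13 of the 18 higher and 0 lower (median 0.67). Among them were Pon1 (2.30, SE 0.22, adjusted p = 0.000428), Gsta3 (1.80, SE 0.09, adjusted p = 5.62e-05), Cyp2f2 (1.31, SE 0.13, adjusted p = 0.00048), Cyp2b10 (1.01, SE 0.05, adjusted p = 4.85e-05) and Hp (0.69, SE 0.08, adjusted p = 0.00112). In IL-33+LM8 against control 2 were higher and 4 lower (median -0.17), with Cyp2f2 at -1.24 (SE 0.14, adjusted p = 0.00097) and Pon1 at -1.43 (SE 0.16, adjusted p = 0.000888) among the lower. The share of the difference between control and IL-33 mean FPKM that was absent with LM8 was 30.1% for Cyp2f2, 31.8% for Pon1, 65.5% for Gsta3, 67.6% for Hp and 75.3% for Cyp2b10. On the log2 scale the shares lay closer together, at 51.2%, 61.5%, 79.7%, 74.0% and 82.1%. These shares are given without a test.

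**Figure D5:**
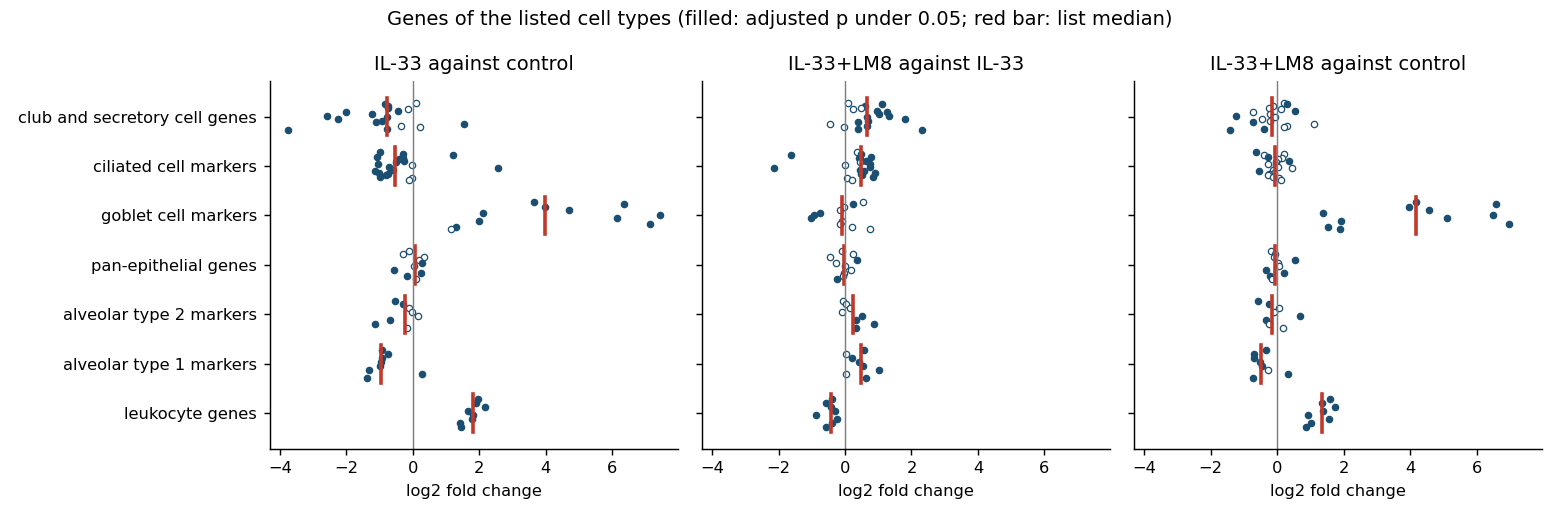
Log2 fold change of each tested gene of 7 lists in the 3 comparisons, filled where the adjusted p was under 0.05, with the list median as a red bar. Club and ciliated genes lie mostly below 0 with IL-33 (medians -0.78 and -0.55) and above 0 with LM8 added (0.67 and 0.47), goblet genes lie above 0 in both comparisons with control, and the median of the pan-epithelial genes with IL-33 is 0.06, with 2 genes higher and 2 lower.

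Epithelium as a whole was measured beside the members. Of 10 pan-epithelial genes, 2 were higher and 2 lower in IL-33 against control (median log2 fold change 0.06), where 2 in all passed without IL-33 replicate 1 or 3, and their summed level was 330 to 363 FPKM in control, 334 to 361 in IL-33 and 319 to 345 in IL-33+LM8 mice. All 8 leukocyte genes rose with IL-33 (median 1.79), and their summed level went from 181 to 204 FPKM in control mice to 648 to 675 in IL-33 mice and 469 to 477 in IL-33+LM8 mice. Set against the mean of the pan-epithelial genes in the same mouse, on log2(FPKM + 1), the members differed between IL-33 and control by -1.29 ± 0.13 for Scgb1a1, -3.46 ± 0.16 for Scgb3a2, -1.50 ± 0.14 for Tppp3 and 2.26 ± 0.45 for Bpifb1 (pooled SD, n = 3 against 3, exact permutation p = 0.1 for each, the smallest possible). These are close to the fold changes without that reference, but the size depends on the reference. Against the ciliated or the alveolar type 2 genes, many of which fell themselves, the difference was -0.91 or -0.94 for Scgb1a1, -3.08 or -3.11 for Scgb3a2 and -1.12 or -1.15 for Tppp3, and that of Scgb3a1 went from -0.29 to 0.09 or 0.06.

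Markers of other epithelial cells were measured too. Of 11 goblet cell genes tested, 10 rose and 0 fell with IL-33 (median 3.98), and all 11 were higher in IL-33+LM8 mice than in control mice (median 4.19). Between IL-33+LM8 and IL-33, 1 was higher and 3 lower (median -0.10), and 1 or 2 passed without any single IL-33 mouse or without IL-33+LM8 replicate 3. Clca1, a secreted protein of goblet cells, went from 5.04 ± 4.06 to 410 ± 20.7 FPKM with IL-33 (log2 fold change 6.35, SE 0.68, adjusted p = 0.000203). Muc5b, a gel-forming mucin, went from 5.07 ± 0.59 to 20.4 ± 0.65 FPKM (2.00, SE 0.09, adjusted p = 3.2e-06) and Slc26a4, the anion exchanger pendrin, from 0.593 ± 0.107 to 84.3 ± 10.1 FPKM (7.14, SE 0.16, adjusted p = 5.11e-07). Muc5ac, the inducible gel-forming mucin, was lower where LM8 had been given (6.09 ± 0.31 FPKM against 12.5 ± 1.46 FPKM; -1.04, SE 0.09, adjusted p = 0.000327). Of 8 alveolar type 2 genes 0 rose and 4 fell with IL-33 (median -0.24), and of 8 alveolar type 1 genes 1 rose and 7 fell (median -0.95). Of all genes tested in IL-33 against control, 27.4% rose and 27.2% fell. The part of these cell types in the values of the 7 genes was not tested.

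Among 18 transcription factors and Notch genes listed for secretory cells, 1 rose and 7 fell with IL-33, and 10 did not pass (median -0.30). In the same comparison 54.6% of all genes tested passed. The lung RNA was not sorted, so these values are of all its cells. The part of secretory cells in them was not tested. Hey1, a target of Notch signalling, fell from 28.1 ± 6.57 to 12.4 ± 0.51 FPKM (log2 fold change -1.18, SE 0.15, adjusted p = 0.000538) and was 26.1 ± 2.21 FPKM with LM8 (1.08 over IL-33, SE 0.08, adjusted p = 0.000191). The receptor Notch3 fell from 21.6 ± 1.08 to 12 ± 1.08 FPKM (-0.85, SE 0.08, adjusted p = 0.000108) and was 17.6 ± 2.52 FPKM with LM8 (0.55 over IL-33, SE 0.11, adjusted p = 0.00963). Sox2, a factor of airway epithelium, was higher in IL-33+LM8 than in IL-33 mice (0.62, SE 0.10, adjusted p = 0.00451); the calls on Notch3 and Sox2 were lost with 2 mice a group (adjusted p = 0.057 and 0.069), and that on Sox2 also with all 9 mice in 1 fit (adjusted p = 0.076). Nkx2-1 measured 35.5 ± 21, 29.2 ± 12.2 and 28.4 ± 14.7 FPKM and did not pass. Between IL-33+LM8 and IL-33 mice 3 of the 18 were higher and 0 lower (median 0.12), with 5 that passed without IL-33+LM8 replicate 2, and in IL-33+LM8 against control 0 were higher and 1 lower (median -0.23), with 4 that passed without IL-33+LM8 replicate 1 and 0 without IL-33+LM8 replicate 3.

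The genes most like each member over the 9 mice are given as a description, with r on log2(FPKM + 1) among 14674 genes. For Scgb1a1 they were Efemp1, Plekhb1, Sftpc, Cyria and Ptpn11 (r of 0.994 to 0.996). Sftpc, the surfactant protein of alveolar type 2 cells, measured 11030 ± 530, 4993 ± 98.0 and 9203 ± 477 FPKM so that 69.7% of its difference in mean FPKM, or 77.2% on the log2 scale, was absent with LM8. For Scgb3a2 they were Lgi3, Enpp5, Mtfr1l, Fgf1 and Crip2 (r of 0.996 to 0.999), and for Tppp3 they were Enpp5, Fgf7, Cyp2s1, Scgb3a2 and Arl4d (r of 0.994 to 0.997). For Bpifb1 they were Reg3g, Tmc5, Eif3i, F3 and Agr2 (r of 0.985 to 0.991). Reg3g, a secreted antimicrobial lectin, measured 10.2, 84.1 and 86.1 FPKM and Agr2, a chaperone of mucin folding in goblet cells, 1.3, 16.3 and 23.5 FPKM in control, IL-33 and IL-33+LM8 mice. For Scgb3a1 (Capsl, Lipo3, Cnot8, Tomm40l and Swsap1, r of 0.917 to 0.942) and Bpifa1 (Immt, Actr10, Selenof, Cnn1 and Arl1, r of 0.932 to 0.959) the coefficients were lower, and the means of Immt, at 9.18, 8.99 and 9.52 FPKM, differed little between groups.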

How the data were processed

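Lung RNA of 9 mice was sequenced by the authors in paired reads of 150 bases on an Illumina NovaSeq instrument. The table deposited by the authors gives, per gene and mouse, raw read counts and FPKM; its per-gene comparison columns were not used. The submitters' processing notes name HISAT2 2.0, StringTie 1.3.0, Bowtie 0.12.2 and mm10, without saying what each did, and the table's coordinates do not match GRCm38. Strand of the counting is not given in the sources used here.

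Counts were tested with edgeR 4.0.16 (R 4.3.3), TMM and quasi-likelihood F tests, on the 6 mice of each comparison, for genes whose FPKM averaged 0.5 or more across 9 mice and whose count was above 0. P-values were Benjamini-Hochberg adjusted over all genes tested, and the standard error is the fold change divided by the square root of F. Sums and ratios used the deposited FPKM; the pseudocount for log2 was 1. A count of up to 3 was the floor, and no member reached it. That floor covers counting error only, whereas the SDs and standard errors include variation between mice. The fits were tested on simulated counts. Within groups, the variance between any 2 libraries was 24.4 times that of sampling or more, so none was a copy.

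The 7 genes and 16 lists were chosen with earlier results of these data known. Named genes are the members, tested family members, and from each other list the 3 most abundant and the 2 with the largest change per comparison; others are marked, and 1 family member is not reported here. The likeness rule took 5 genes per member with a mean FPKM of at least 1. By their deviations from group means, control and IL-33+LM8 mice of the same replicate number correlated (r = 0.307, 0.322 and 0.672, all above 0.1). With IL-33 mice not all did (lowest r = -0.419). No label gives a pairing. Control replicate 1 with IL-33+LM8 replicate 2 (0.198) and control replicate 2 with IL-33+LM8 replicate 1 (0.169) were above 0.1 too. The r of 0.672 was between libraries that deviated together, so this check cannot show that the numbers pair mice. Alternatives were other size factors, DESeq2 1.42.0, limma 3.58.1 on log2(FPKM + 1) and log2(FPKM + 0.1), other filters, all 9 mice in 1 fit, a replicate block, each mouse left out, ciliated or alveolar type 2 genes as the epithelial reference and, chosen after seeing the data, both sets of 3 libraries left out. Promoters were RefSeq sequences of GRCm38.p6, at hand for 4 of the 7 genes; other promoters and the proteins were not used here.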

Additional observations from a re-analysis of the deposited data

How the results depend on the processing

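With 3 mice a group, small changes of variable genes cannot be shown. Each call made on the 7 genes was kept, in direction and in passing, in all 17 alternative fits tried. Of the other values of single members, 16 passed newly and 8 changed sign. A minimum fold change of 2 dropped the calls on Scgb1a1 and Tppp3 in IL-33+LM8 against IL-33. It also dropped the call on Tppp3 in IL-33+LM8 against control. The number of members that passed in IL-33 against control was 4 to 5 with any mouse left out and 6 without the libraries high in nervous-system genes. In IL-33+LM8 against IL-33 it was 3 to 6 with a mouse left out, the 6 without IL-33+LM8 replicate 1, and 1 with a minimum fold change of 2 (log2 of 1). In IL-33+LM8 against control it was 3 to 4 with a mouse left out, and 2 with the minimum fold change.

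The replicate block moved the number of members that passed in IL-33+LM8 against control from 3 to 6, adding Scgb1a1, Scgb3a1 and Bpifa1. In each of the other comparisons the block gave 4, with Scgb3a1 added in IL-33+LM8 against IL-33 (adjusted p = 0.018). A pairing of mice by number was not shown for any comparison.

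Signs changed for Aldoc in IL-33 against control (-0.91 to 0.11 on the log2 scale with a mouse left out, positive without control replicate 2, 0.09, or IL-33 replicate 1) and between IL-33+LM8 and IL-33 (-0.99 to 0.021, positive without IL-33 replicate 2), for Bpifb1 in IL-33+LM8 against IL-33 (-0.016 to 0.58) and for Scgb3a1 in IL-33+LM8 against control (-0.022 to 0.41). Without the libraries high in nervous-system genes, a setting chosen after seeing the data, Aldoc was 0.63, 0.021 and 0.66 in the 3 comparisons. DESeq2 also passed Scgb3a1 in IL-33+LM8 against IL-33 (adjusted p = 0.012) and Scgb1a1 in IL-33+LM8 against control (adjusted p = 0.00023). Of the values set against pan-epithelial genes, 16 moved by more than the spread between mice, each with ciliated or alveolar type 2 genes as the reference, and 173 did not. Scaling shifted the median of all genes by at most 0.0325 on the log2 scale. At a minimum mean FPKM of 5 Aldoc was not tested. Except for the alternatives named, the cause of these differences was not tested.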

Other observations

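Lists of cells that lie near the secretory epithelium, or that a dissected lung can carry along, were measured too. Of 7 basal cell genes 2 were tested, Aqp3 and Ngfr, and both were higher with IL-33 (list median log2 fold change 2.48), with the summed level of the 7 at 0.984 to 1.86 FPKM in control, 5.99 to 7.72 in IL-33 and 2.97 to 4.92 in IL-33+LM8 mice. Of 6 tested genes listed for submucosal glands and proximal airways, 3 rose and 2 fell with IL-33. The rises included Pigr, the transporter of polymeric immunoglobulins, from 21 ± 1.97 to 69.4 ± 0.34 FPKM. Lyz1, a lysozyme, fell from 192 ± 12.3 to 38.3 ± 8.42 FPKM. Wfdc2, an antiprotease of airway secretions, fell from 229 ± 23.5 to 150 ± 10.1 FPKM. Which cells of the unsorted lung gave these values was not tested. The 10 cartilage genes summed to 0.687 to 1.81 FPKM and the 5 thyroid genes to 0.390 to 0.745 FPKM over the 9 mice. Of 5 tested neuroendocrine genes 2 rose with IL-33, Calca and Pcsk1, while the list median log2 fold change was -0.52. Syp, a synaptic vesicle protein, was among the 3 that did not pass.

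Cebpb, a transcription factor listed with secretory cells, measured 0.497, 0.836 and 34.2 FPKM in control mice, 44.6, 0.959 and 1.27 FPKM in IL-33 mice and 0.719, 0.523 and 6.25 FPKM in IL-33+LM8 mice. The high value of each group was in control replicate 3, IL-33 replicate 1 and IL-33+LM8 replicate 3, the libraries that deviated together. Scgb1a1 and Tppp3 were each at the lowest level of their group in the same libraries, by small margins. Cebpb was chosen after its values were seen.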
